A study of Mus musculus with 13 samples.

Results

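The genes described here are 10 components of the route by which a cell senses IL-17A, of 13222 genes measured in cultured 4T1-Thy1.1 cells. They were chosen by name for their role and not by their values: the receptor chains *Il17ra* and *Il17rc*, the adaptor *Traf3ip2* (the gene of Act1), the TRAF genes *Traf2*, *Traf3*, *Traf5* and *Traf6*, the kinase gene *Map3k7* (TAK1) with its partner *Tab2*, and *Elavl1* (HuR), which encodes an RNA-binding protein. All are protein-coding genes. In GRCm38 *Il17ra* lies at chr6:120463247-120487559, *Il17rc* at chr6:113471427-113483140, *Traf3ip2* at chr10:39612934-39655307, *Traf3* at chr12:111166370-111267153 and *Map3k7* at chr4:31964097-32023467, on the + strand, and *Elavl1* at chr8:4285382-4325413 on the - strand. All 10 were listed and all 10 passed the filter on low counts, which kept 12319 genes for testing.

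IL-17A binds a receptor made of IL-17RA and IL-17RC, and both chains recruit Act1 through a domain of one kind. Act1 is a ubiquitin ligase that acts on TRAF6, which in turn activates TAK1 and its TAB partners and leads to NF-kB and MAP kinase signaling. Act1 also works with TRAF2 and TRAF5 to prolong the life of short-lived cytokine and chemokine messages, an arm in which HuR binds AU-rich messages, while TRAF3 binds the receptor and restrains the pathway. Epithelial cells are a main target of IL-17A.

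4T1-Thy1.1 is a mouse mammary carcinoma line that carries a Thy1.1 transgene, and all 13 libraries came from this line grown in culture wells with DMEM/F12 and FBS, per the labels, so no host cells or immune cells were part of the design. The methods of the paper instead name RPMI medium with FBS for culture of the line. Cells were left untreated (control, n = 3), or exposed for 48 hours to 200 ng/mL doxorubicin (DOX, n = 4), to DOX and 25 ng/mL recombinant mouse IL-17A together (DOX+IL-17A, n = 3), or to 25 ng/mL IL-17A alone (n = 3). DOX is an anthracycline that damages DNA. The comparisons addressed how IL-17A bears on the response to DOX, and here whether either agent moved the messages of the genes that receive the IL-17A signal.

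Values are reads per gene scaled by the TMM method. Since the 3' end of each message was sequenced, a value does not scale with the length of the message. Levels are compared between genes on that basis, but other differences between genes in how reads are captured were not tested. Reads on listed genes ranged from 4445592 to 16930600 per library. *Epcam*, which marks epithelial cells, was detected in all 13 libraries (lowest value 124), and 7 epithelial markers summed to 1741 to 2287 without DOX and to 870 to 1143 with it. Immune markers were low, with 2 of 5 listed, *Ptprc* at no more than 3.57 and a summed level of 1.52 to 13.1 without DOX and 8.79 to 19.4 with it. Control replicate 1 stood apart from the other control libraries: it lay outside the range of the other 2 for 86.4% of genes tested, against 63.4% for control replicate 3 and 47.1% for control replicate 5. DOX replicate 1 held messages of muscle and red blood cells, with a summed level of 190 for 5 muscle markers against no more than 28.1 in any other library, and 66.5 for the 3 listed of 5 red blood cell markers against no more than 14.4. Control replicate 1 was also highest for 4 fibroblast markers, all listed, which summed to 105 there, to 41.4 and 46.4 in the other control libraries and to no more than 63.0 in any other library. The part of these markers in the results was not tested, but the counts of the 10 genes past the test, given next, were as large without DOX replicate 1, while without control replicate 1 that for DOX+IL-17A was 0. Because RNA was taken from whole wells, fewer cells of a kind and less RNA per cell cannot be told apart.

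*Elavl1* was the only one of the 10 genes to pass the test in any comparison. Tested with limma across all genes and adjusted by the Benjamini-Hochberg method, DOX called 0 of the 10 at an adjusted p under 0.05, against 22.1% of all genes tested, and 1 of the 10 had an unadjusted p under 0.05, against 36.5% of all genes. DOX+IL-17A called 1 of the 10 against control, *Elavl1*, which was higher, against 17.7% of all genes (9.37% higher), and 2 of the 10 had an unadjusted p under 0.05, against 32.5%. IL-17A alone called 0 of the 10, against 0.00812% of all genes, and 0 of the 10 had an unadjusted p under 0.05, against 3.08%. Voom with limma, edgeR and DESeq2 also called 0 of the 10 for DOX and for IL-17A alone, while for DOX+IL-17A against control edgeR and DESeq2 each called 1 and voom called 0. These 3 comparisons share the control libraries. Adding IL-17A to DOX called 0 of the 10 by all 4 of these tools, against 0.455% of all genes by limma. DOX in the presence of IL-17A, which compares DOX+IL-17A with IL-17A alone, likewise called 0 of the 10, against 13.3% of all genes. In both of these comparisons 0 of the 10 had an unadjusted p under 0.05, against 6.35% and 28.5% of all genes. With the fold change required to exceed 2 as well, the counts were 0 of 10 for DOX (15.3% of all genes) and 1 of 10 for DOX+IL-17A (12.9%).

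With DOX 9 of the 10 genes had a log2 fold change above 0, as did most genes tested, whose median was 0.09. *Tab2* was among the 9 at 0.01, and at -0.02 without control replicate 1. The median log2 fold change of the 10 genes was 0.36 with DOX. It was 0.11 with DOX+IL-17A, 0.06 with IL-17A alone and -0.02 when DOX+IL-17A was set against DOX, where the medians of all genes were 0.04, 0.02 and -0.03. For DOX+IL-17A against IL-17A alone it was 0.20, against 0.02 for all genes, with 9 of the 10 above 0. The 95% intervals give the range of change compatible with these data for a single gene. They are not adjusted for the number of genes tested, so they do not mark which changes the test would call. Their outer bounds over the 10 genes were -0.88 and 1.45 for DOX, -1.06 and 1.29 for IL-17A alone, and -1.12 and 1.02 for DOX+IL-17A against DOX.

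Promoter windows of 300 bases around the start of transcription were taken from RefSeq (GRCm38.p6) and matched 8 of the 10 genes. No window was matched for *Il17ra* or *Traf3ip2*, so these were not searched. The matched windows numbered 9, since *Tab2* had 2. They were searched on both strands for the NF-kB motif by its common consensus and for the C/EBP motif TTGCNNAA, the factors through which IL-17A acts on many of its targets. The NF-kB motif was found in 2 of the 8, *Traf3* and *Map3k7*, against 8.46% of 32851 promoters, and the C/EBP motif in 1 of the 8, *Map3k7*, against 10.8%. These shares count windows and not genes, and they were not matched for base composition. The matched windows held 2 to 59 CG pairs, with 59 for *Traf3* and 36 for *Map3k7*, against a median of 7 over all promoters. The windows of both genes are shown with the motif matches in capitals, beside that of *Elavl1*, the called gene, which held neither. The *Traf3* window spans chr12:111166120-111166419 on the + strand with its match from base 241 to 250, the *Map3k7* window chr4:31963857-31964156 on the + strand with the C/EBP match from base 53 to 60 and the NF-kB match from base 159 to 168, and the *Elavl1* window chr8:4325051-4325350 on the - strand.
Traf3: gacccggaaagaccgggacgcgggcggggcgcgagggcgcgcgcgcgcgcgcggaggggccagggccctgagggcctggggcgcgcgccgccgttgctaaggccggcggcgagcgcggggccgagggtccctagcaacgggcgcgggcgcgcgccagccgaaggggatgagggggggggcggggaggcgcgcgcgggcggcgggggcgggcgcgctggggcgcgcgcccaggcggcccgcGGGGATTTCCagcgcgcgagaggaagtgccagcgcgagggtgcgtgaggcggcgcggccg
Map3k7: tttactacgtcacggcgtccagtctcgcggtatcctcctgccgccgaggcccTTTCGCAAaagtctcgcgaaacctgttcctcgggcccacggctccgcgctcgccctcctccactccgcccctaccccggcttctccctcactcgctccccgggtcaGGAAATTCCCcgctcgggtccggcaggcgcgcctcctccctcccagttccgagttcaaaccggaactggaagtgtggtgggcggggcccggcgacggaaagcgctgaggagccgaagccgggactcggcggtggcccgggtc
Elavl1: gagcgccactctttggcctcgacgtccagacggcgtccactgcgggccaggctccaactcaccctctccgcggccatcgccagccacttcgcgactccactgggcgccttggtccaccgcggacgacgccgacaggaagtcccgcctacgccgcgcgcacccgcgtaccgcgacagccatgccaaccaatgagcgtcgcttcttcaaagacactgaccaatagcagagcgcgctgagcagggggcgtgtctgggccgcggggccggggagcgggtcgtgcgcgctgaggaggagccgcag
A match describes these letters only, and none of these genes was tested for binding.

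**Figure D1:**
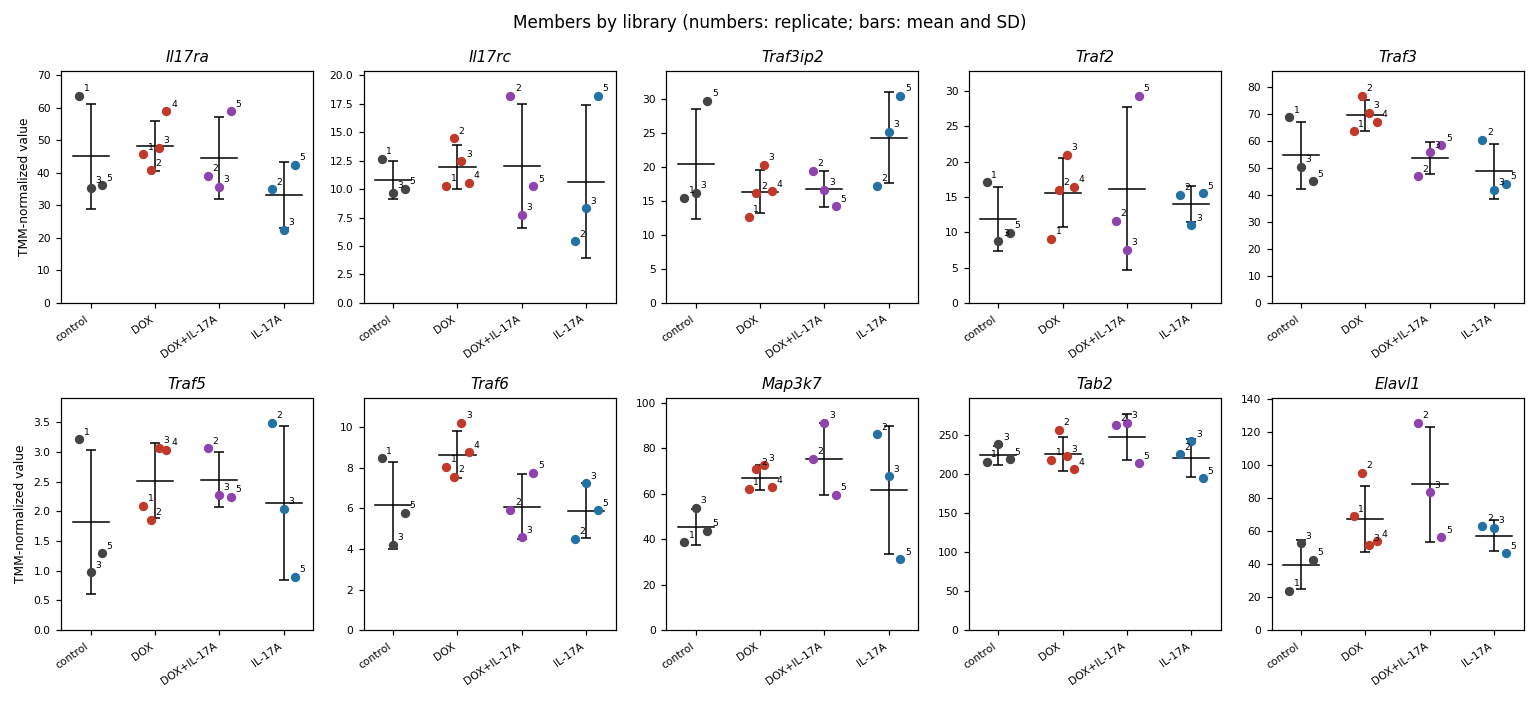
TMM-normalized value (vertical axis, starting at 0) of the 10 genes in each of the 13 libraries, by condition (horizontal axis). Points are libraries numbered by replicate, and bars give the mean and SD. The 3 DOX+IL-17A points of Elavl1 sit between 56.3 and 126, all above the control points, and the conditions of the receptor chains overlap.

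The receptor chain *Il17ra*, which all IL-17A signaling needs, stood at 63.8, 35.5 and 36.2 in control replicates 1, 3 and 5. The DOX libraries gave 45.8, 40.8, 47.8 and 58.9, and the DOX+IL-17A libraries 39.1, 35.6 and 58.9. IL-17A alone gave 34.9, 22.5 and 42.4. The 4 conditions overlapped, and the highest value belonged to control replicate 1. The log2 fold change was 0.14 with DOX (SE 0.279, limma adjusted p = 0.755) and -0.42 with IL-17A alone (SE 0.298, limma adjusted p = 0.959). The interval of the latter, -1.06 to 0.21, leaves room for a level of 0.481 times that of control. DOX+IL-17A differed from DOX by -0.14 (limma adjusted p = 0.998).

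The second chain, *Il17rc*, the partner of IL-17RA in the receptor for IL-17A and IL-17F, was lower, at 12.7, 9.68 and 10.02 in control cells. It stood at 10.3, 14.5, 12.4 and 10.6 with DOX. With DOX+IL-17A it was 18.2, 7.75 and 10.2, and with IL-17A alone 5.41, 8.33 and 18.2. Both IL-17A conditions spread over more than the whole range of the control libraries. The log2 fold change with DOX was 0.13 (SE 0.371, limma adjusted p = 0.832). Within each library *Il17ra* exceeded *Il17rc*, and the ratio of the first to the second averaged 4.10 ± 0.802 (SD, n = 3) in control, 4.17 ± 1.15 (SD, n = 4) with DOX, 4.17 ± 1.84 (SD, n = 3) with DOX+IL-17A and 3.83 ± 2.29 (SD, n = 3) with IL-17A alone. These means differed by less than the SD of any condition.

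*Traf3ip2*, the gene of the adaptor Act1, stood at 15.4, 16.1 and 29.7 in control cells. With DOX it was 12.6, 16.1, 20.3 and 16.4, and with DOX+IL-17A 19.4, 16.6 and 14.2. IL-17A alone gave 17.2, 25.2 and 30.4, which includes the highest library of all 13. It was the only one of the 10 genes with a negative log2 fold change for DOX, -0.26 (SE 0.294, limma adjusted p = 0.550), and without control replicate 5 that value was 0.03. DOX+IL-17A differed from IL-17A alone by -0.49 (limma adjusted p = 0.333). Exons of *Traf3ip2* overlap those of E130307A14Rik on the opposite strand, which was listed at 0 to 2.20.

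The genes whose pattern over the 13 libraries was nearest to these, by the root mean square difference of centred log2 values among 8197 genes with a mean of at least 10, were *Tbrg4* (0.156), *Smdt1* (0.159) and *Ndufb7* (0.180) for *Il17ra*. For *Il17rc* they were *Cdk16* (0.216), *Creg1* (0.268) and *Trim28* (0.284), and for *Traf3ip2* they were *Ift52* (0.189), *Guf1* (0.201) and *Arhgef40* (0.201). The medians over all candidates were 0.580, 0.613 and 0.565, and the measure includes whatever library differences the genes share.

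*Traf6*, the ubiquitin ligase that passes the signal from Act1 to TAK1, stood at 8.46, 4.20 and 5.78 in control cells and at 8.05, 7.55, 10.2 and 8.76 with DOX. With DOX+IL-17A it was 5.93, 4.57 and 7.74, and with IL-17A alone 4.51, 7.23 and 5.91. All DOX libraries lay above control replicates 3 and 5, and control replicate 1 lay among them. The log2 fold change was 0.47 with DOX (SE 0.312, limma adjusted p = 0.292) and -0.46 for DOX+IL-17A against DOX (limma adjusted p = 0.979).

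*Traf3*, which restrains the pathway at the receptor, stood at 68.7, 50.5 and 45.0 in control cells. It was 63.5, 76.7, 70.5 and 67.2 with DOX, and 46.8, 55.8 and 58.4 with DOX+IL-17A. IL-17A alone gave 60.5, 41.8 and 44.1. Every DOX library lay above every DOX+IL-17A library. The exact 2-sided permutation p of that difference was 0.0571, the smallest that 4 libraries against 3 allow, which any complete separation gives. The log2 fold change of -0.37 did not pass the test across all genes (SE 0.208, limma adjusted p = 0.943). Against control, the DOX value was 0.36 (limma adjusted p = 0.229), and control replicate 1 again lay among the DOX libraries. The promoter window of *Traf3*, printed above, held an NF-kB match.

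*Traf2*, which joins TRAF5 in the arm that stabilizes messages, gave 8.77 to 17.1 in control cells and 9.09 to 21.0 with DOX. The DOX+IL-17A libraries gave 11.7, 7.55 and 29.3, and replicate 5 set the width of that spread. IL-17A alone gave 15.3 and 15.5 in replicates 2 and 5, and less in replicate 3. *Traf5*, the least abundant of the 10, stood at 0.974 to 3.21 in control cells, at 1.86 to 3.08 with DOX, at 2.25 to 3.07 with DOX+IL-17A and at 0.902 to 3.49 with IL-17A alone. These values rest on 11 to 36 reads per library, and exons of *Traf5* overlap those of Gm26879 on the opposite strand and of Mir3473c on the same strand, neither of which was analysed here. The log2 fold changes with DOX were 0.36 for *Traf2* (SE 0.405, limma adjusted p = 0.542) and 0.38 for *Traf5* (SE 0.373, limma adjusted p = 0.488), and their conditions overlapped.

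*Map3k7*, the gene of the kinase TAK1, stood at 38.6, 53.8 and 43.7 in control cells. With DOX it was 62.0, 70.7, 72.6 and 62.8, and with DOX+IL-17A 75.5, 91.2 and 59.5. IL-17A alone gave 86.1, 67.8 and 31.1. All 7 libraries with DOX lay above all 3 control libraries, while IL-17A alone spanned a range wider than that of any other condition. Exact 2-sided permutation tests gave the smallest p the numbers allow, 0.0571 for DOX and 0.1 for DOX+IL-17A. Any complete separation gives these values, so they restate it. Across all genes the log2 fold changes of 0.56 (SE 0.285, limma adjusted p = 0.167) and 0.71 (SE 0.305, limma adjusted p = 0.118) did not pass. The value for IL-17A alone was 0.33 (limma adjusted p = 0.959). Without IL-17A replicate 5, which takes no part in the comparison but shares the estimate of spread, the DOX+IL-17A value passed (limma adjusted p = 0.0375). The promoter window of *Map3k7*, also printed above, was the only one of the 8 with a match to both motifs.

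*Tab2*, whose protein ties TAK1 to ubiquitin chains, was the most abundant of the 10 and the steadiest. It stood at 216, 238 and 219 in control cells, at 218, 257, 223 and 206 with DOX, at 262, 266 and 214 with DOX+IL-17A and at 226, 242 and 195 with IL-17A alone. The residual SD on the log2 scale was 0.141, against 0.299 for the median gene with a mean between 100 and 500. None of its comparisons passed the test.

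*Elavl1*, the gene of HuR, had the largest fold changes of the 10 with DOX and with DOX+IL-17A. It stood at 23.7, 52.6 and 42.7 in control cells and at 69.0, 95.4, 51.4 and 53.7 with DOX. With DOX+IL-17A it was 126, 83.4 and 56.3, and with IL-17A alone 63.3, 61.9 and 46.7. The 3 DOX+IL-17A libraries lay above all control libraries, while DOX and IL-17A alone overlapped control through control replicate 3. *Elavl1* rose with DOX+IL-17A by 1.14 on the log2 scale (SE 0.335, 95% interval 0.42 to 1.85, limma adjusted p = 0.0297). The value was 0.78 with DOX (SE 0.314, limma adjusted p = 0.0865) and 0.58 with IL-17A alone (SE 0.335, limma adjusted p = 0.959). DOX+IL-17A against DOX (0.36, limma adjusted p = 0.998) and against IL-17A alone (0.56, limma adjusted p = 0.297) did not pass. Its promoter window, printed above, held neither motif.

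The call of *Elavl1* with DOX+IL-17A depended on the test and on single libraries. It was lost with voom (1.02, adjusted p = 0.0505), with a replicate block (0.84, limma adjusted p = 0.0914) and with only the groups compared (1.14, limma adjusted p = 0.112). It was also lost without control replicate 1 (0.81, limma adjusted p = 0.0749), control replicate 5 (1.22, limma adjusted p = 0.0553), DOX+IL-17A replicate 2 (0.85, limma adjusted p = 0.132) or DOX+IL-17A replicate 3 (1.14, limma adjusted p = 0.0772). Conversely, the DOX value passed without control replicate 3 (1.01, limma adjusted p = 0.0418). Exons of *Elavl1* overlap those of *Ccl25* on the opposite strand, which was listed at 0.613 to 5.86, and whether counting used strand is not given in the sources used here.

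**Figure D2:**
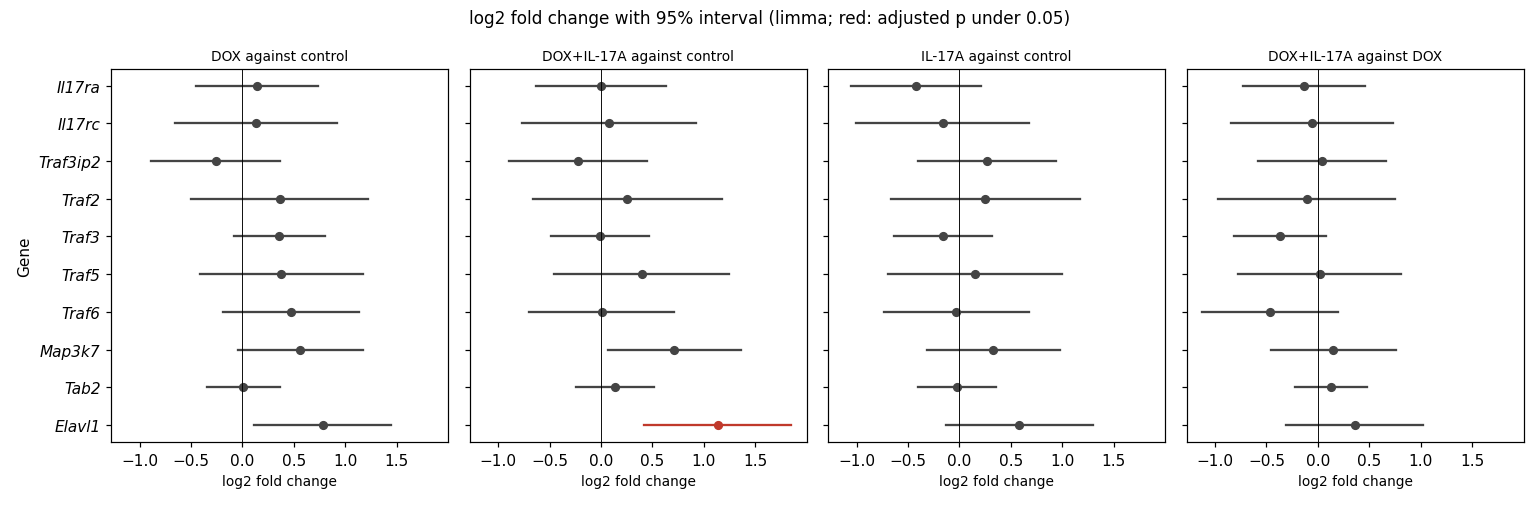
Log2 fold change (horizontal axis) of each of the 10 genes (vertical axis) in 4 comparisons, with limma's 95% interval as a line. Elavl1 with DOX+IL-17A, in red at 1.14, is the only value past the test, and 9 of the 10 DOX values lie above 0.

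Control replicate 1 moved many of these values. It was the highest control library for 6 of the 10 genes and the lowest for the other 4. For 8 it lay farther from the mean of the other 2 control libraries than those 2 lay from each other. Leaving it out therefore had to raise the log2 fold change for DOX of the 6 genes and lower that of the 4. The median of the 10 went from 0.36 to 0.45 while that of all genes went from 0.09 to 0.07. The fold change of *Traf3* went from 0.36 to 0.53 (limma adjusted p = 0.0782) and that of *Elavl1* from 0.78 to 0.46 (limma adjusted p = 0.290). In that fit 0 of the 10 were called for DOX (20.7% of all genes) and 0 for DOX+IL-17A (20.2%).

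**Figure D3:**
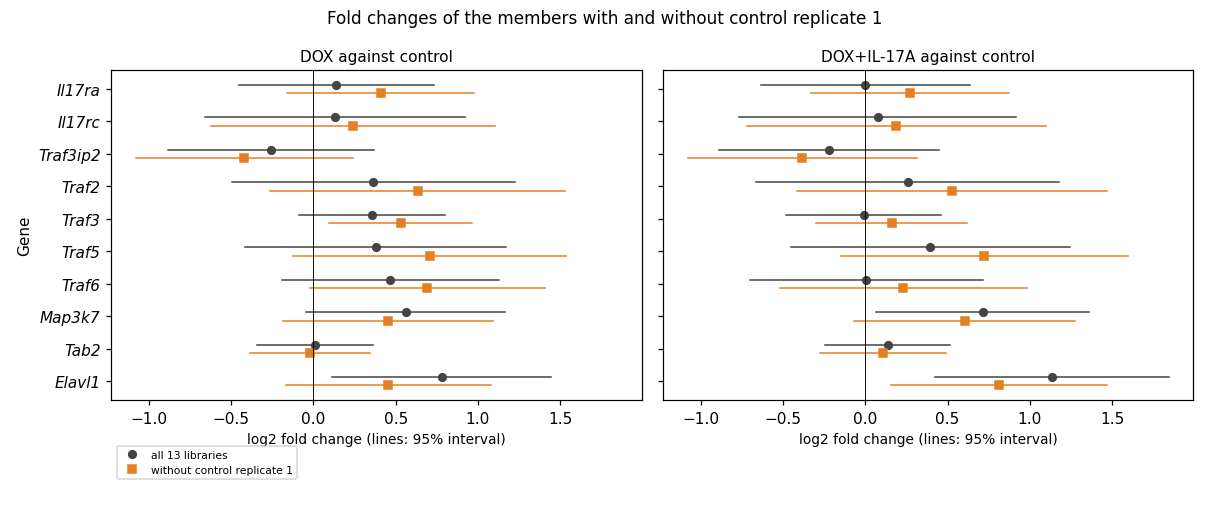
Log2 fold change (horizontal axis) of the 10 genes against control for DOX (left) and DOX+IL-17A (right), with all 13 libraries (circles) and without control replicate 1 (squares). Lines are limma's 95% intervals. Values of 6 genes move right and 4 move left in each panel, as the position of that library among the controls fixes.

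By mean level over the 13 libraries the order was *Tab2*, *Elavl1*, *Map3k7*, *Traf3*, *Il17ra*, *Traf3ip2*, *Traf2*, *Il17rc*, *Traf6* and *Traf5*. *Tab2* lay above *Elavl1*, *Il17rc* above *Traf6* and *Traf6* above *Traf5* in 13 of 13 libraries, and *Traf3* above *Il17ra* and *Il17ra* above *Traf3ip2* in 12 of 13. *Elavl1*, *Map3k7* and *Traf3* could not be ordered, since *Elavl1* lay above *Map3k7* in 4 of 13 libraries and *Map3k7* above *Traf3* in 7 of 13, and neither could *Traf2* and *Il17rc* (7 of 13).

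The 39 other listed genes of the pathway are given for reference. They were chosen by role with earlier results of these data known. Among them are *Nfkbiz* and *Zc3h12a*, which IL-17A induces in many cells. Their counts beside the share of all genes are therefore not a test of the pathway. A further 6 of the 45 chosen, *Il17a*, *Il17b*, *Il17c*, *Il17f*, *Il25* and *Il17rb*, were not analysed here. DOX called 6 of the 39, 3 up and 3 down, against 22.1% of all genes, and DOX+IL-17A called 7, 6 up and 1 down, against 17.7%. IL-17A alone called 0 by limma, against 0.00812% of all genes, with 4 of 39 at an unadjusted p under 0.05, against 380 of 12319 genes tested. DESeq2 called 2 for IL-17A alone, *Zc3h12a* and *Cebpd*. Adding IL-17A to DOX called 3, against 0.455% of all genes, and DOX in the presence of IL-17A called 4, against 13.3%.

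Of these, *Traf4*, a TRAF that competes with TRAF6 for Act1, rose from 13.4, 14.2 and 12.5 in control to 41.9, 55.0, 47.3 and 37.1 with DOX (log2 fold change 1.68, SE 0.238, limma adjusted p = 0.000291). With DOX+IL-17A it was 50.7, 47.3 and 32.0, and with IL-17A alone 19.3, 14.5 and 14.9. All libraries with DOX lay above all without it. *Il17d*, which encodes an IL-17 family ligand, was called only when DOX+IL-17A was set against IL-17A alone (1.67, limma adjusted p = 0.00950), and it rested on 0 to 9 reads per library with IL-17A alone.

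*Nfkbiz*, the gene of IkB-zeta, and *Zc3h12a*, the gene of the ribonuclease Regnase-1, are both induced by IL-17A in many cells. *Nfkbiz* stood at 106, 52.0 and 41.1 in control, at 95.1, 133, 42.6 and 34.9 with DOX, at 257, 301 and 235 with DOX+IL-17A and at 148, 192 and 199 with IL-17A alone. All 6 libraries with IL-17A lay above all 7 without it. It rose with DOX+IL-17A against control (2.09, SE 0.424, limma adjusted p = 0.00423) and against DOX (1.98, SE 0.397, limma adjusted p = 0.0408). Its value of 1.53 with IL-17A alone did not pass (SE 0.424, limma adjusted p = 0.959). *Zc3h12a* stood at 15.6, 12.1 and 8.37 in control and at 28.1, 33.8, 10.3 and 14.4 with DOX. With DOX+IL-17A it was 60.3, 76.6 and 83.9, and with IL-17A alone 67.6, 52.5 and 33.5. It rose with DOX+IL-17A by 2.54 against control (SE 0.395, limma adjusted p = 0.000746) and by 1.85 against DOX (SE 0.369, limma adjusted p = 0.0408). Its value of 1.99 with IL-17A alone did not pass by limma (SE 0.395, limma adjusted p = 0.254).

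*Cebpd*, a transcription factor gene of the C/EBP family, rose with DOX (2.49, SE 0.554, limma adjusted p = 0.00569) and with DOX+IL-17A (4.40, SE 0.592, limma adjusted p = 0.000333), and stood at 49.1 to 134 in the DOX+IL-17A libraries against 2.24 to 4.40 in control. Its values of 1.995 with IL-17A alone (limma adjusted p = 0.959) and 1.91 for DOX+IL-17A against DOX (limma adjusted p = 0.258) did not pass by limma. In neither of these comparisons did the libraries overlap. DOX+IL-17A against IL-17A alone passed (2.41, SE 0.592, limma adjusted p = 0.0158). *Usp18*, an interferon-induced gene named for the ubiquitin-specific peptidase family, rose with DOX (2.92, SE 0.312, limma adjusted p = 2.64e-05) and with DOX+IL-17A (1.17, SE 0.334, limma adjusted p = 0.0251). When IL-17A was added to DOX, *Usp18* was lower (-1.74, SE 0.312, limma adjusted p = 0.0203). Control libraries gave 8.97 to 9.43, DOX libraries 49.7 to 119 and DOX+IL-17A libraries 17.3 to 30.6, and no 2 of these conditions overlapped. *Ikbke*, the gene of a kinase that phosphorylates Act1, rose with DOX+IL-17A (1.06, SE 0.327, limma adjusted p = 0.0365).

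Of the genes that fell, *Gsk3b*, the gene of a kinase that acts on C/EBP-beta, stood at 264 to 385 in control and at 139 to 193 with DOX (-0.89, SE 0.188, limma adjusted p = 0.00423) and also fell with DOX+IL-17A (-0.66, SE 0.201, limma adjusted p = 0.0341). *Btrc*, the gene of an F-box protein that marks IkB for destruction, fell with DOX (-1.20, SE 0.373, limma adjusted p = 0.0318), as did *Tab1*, the gene of another TAK1 partner (-1.22, SE 0.401, limma adjusted p = 0.0406). For *Tab1* the control and DOX libraries overlapped.

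The 3 calls against DOX did not hold when some single libraries were left out, though the fold changes kept their direction, at 1.68 to 2.31 for *Nfkbiz*, 1.56 to 2.10 for *Zc3h12a* and -1.97 to -1.53 for *Usp18*. Each was lost without DOX replicate 3, DOX replicate 4 or any 1 of the 3 DOX+IL-17A libraries, where the count of calls was 0. The adjusted p of *Nfkbiz* then ranged up to 0.231, that of *Zc3h12a* up to 0.215 and that of *Usp18* up to 0.168 by limma. With a replicate block all 3 were lost (limma adjusted p = 0.0712, 0.0862 and 0.0754), and *Cebpd* was the 1 gene called (2.20, limma adjusted p = 0.0484), while with edgeR or a pseudocount of 0.1 *Usp18* was the 1 gene called. Without control replicate 1 the DOX calls of *Btrc* (-0.81, limma adjusted p = 0.128) and *Tab1* (-0.84, limma adjusted p = 0.153) were lost, as were those of *Btrc* without DOX replicate 1 or 2 and of *Tab1* in 7 further fits that left out 1 library (highest limma adjusted p = 0.117). Those of both genes were also lost with scaling by library size (0.0580 for *Btrc* and 0.0624 for *Tab1* by limma) and with only the groups compared (0.0657 and 0.0741), that of *Btrc* with a replicate block (0.0604) and that of *Tab1* with voom (0.0705). Without IL-17A replicate 2 or 3 *Usp18* alone was called against DOX, and without IL-17A replicate 5 *Nfkbiz* was lost (limma adjusted p = 0.0503). Of the DOX+IL-17A calls against control, *Gsk3b* was lost without control replicates 1 or 5 or DOX+IL-17A replicates 2 or 5 (highest limma adjusted p = 0.0979), *Usp18* without control replicate 5 or DOX+IL-17A replicates 2 or 5 (0.0905) and *Ikbke* in 6 of 13 such fits (0.114). With only the groups compared the calls of *Gsk3b*, *Usp18* and *Ikbke* were lost (limma adjusted p = 0.153, 0.0819 and 0.0996). That of *Gsk3b* was also lost with scaling by library size (0.101) and with a replicate block (0.0890), that of *Usp18* with voom (0.0526), and that of *Ikbke* without control replicate 1 and DOX replicate 1 together (0.0535). Against IL-17A alone, *Il17d* was lost without IL-17A replicate 3 (0.0532) and *Cebpd* without DOX+IL-17A replicate 2 or IL-17A replicates 3 or 5 (0.0734). The calls of *Traf4* in 3 comparisons, of *Cebpd*, *Gsk3b* and *Usp18* for DOX, and of *Cebpd*, *Nfkbiz* and *Zc3h12a* for DOX+IL-17A against control held in 13 of 13 fits that left out 1 library.

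**Figure D4:**
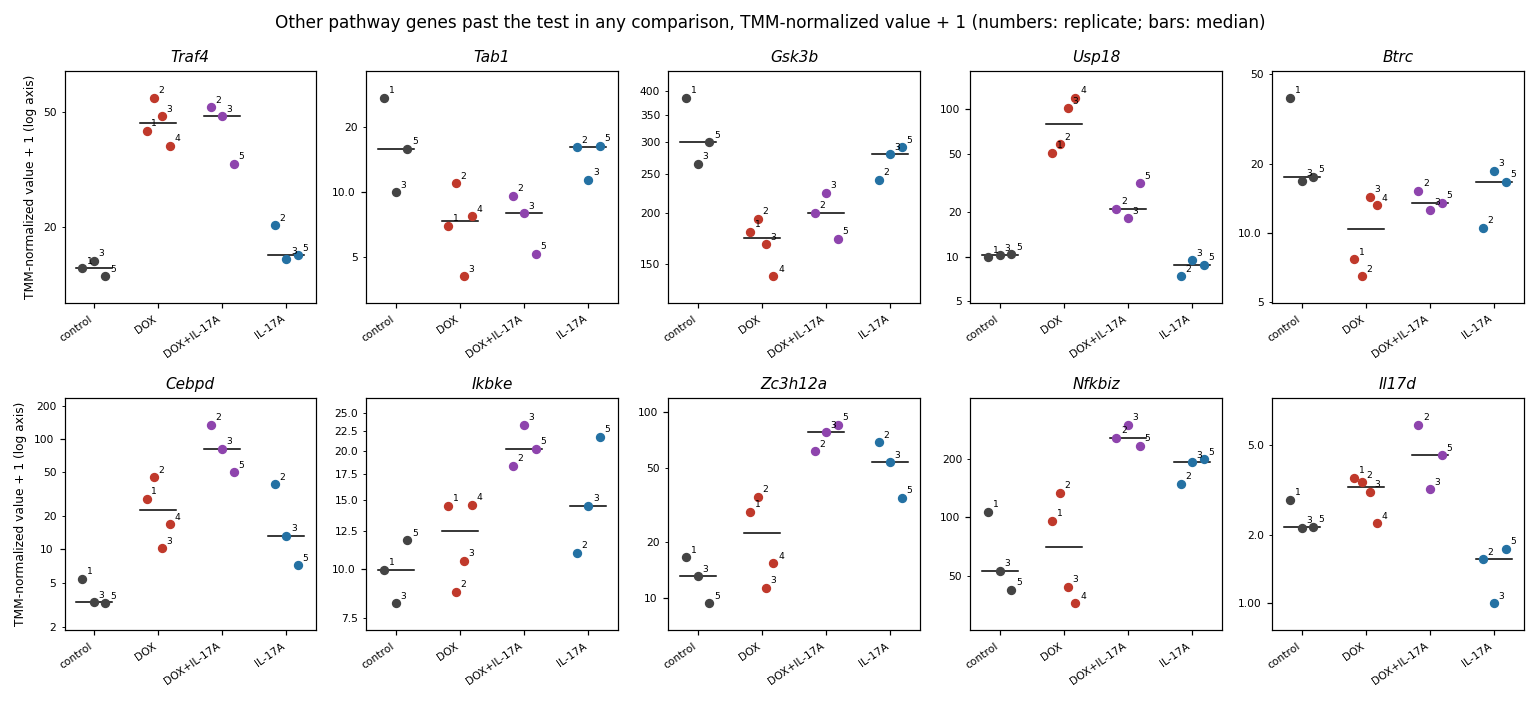
TMM-normalized value plus 1 (vertical log axis) of the 10 other pathway genes past the test in any comparison, by library and condition (horizontal axis). Points are libraries numbered by replicate and bars are medians. All 6 libraries with IL-17A lie above the other 7 for Nfkbiz, and all 7 libraries with DOX lie above the other 6 for Traf4.

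Whether the effect of IL-17A differed with and without DOX was tested directly as the difference between the effects. None of the 10 genes passed by limma, voom, edgeR or DESeq2, with 0 at an unadjusted p under 0.05 (4.51% of all genes) and log2 differences from -0.43 to 0.28, and 0% of all genes passed by limma. The 95% intervals of the 10 reached from -1.62 to 1.26. Of the other pathway genes 0 of 39 passed, with 2 at an unadjusted p under 0.05.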

How the data were processed

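RNA from 13 wells of 4T1-Thy1.1 cells was made into 3' mRNA libraries by the authors. Per the labels and the methods, reads were trimmed, aligned to mm10 with STAR and counted per gene with featureCounts, and the deposited signal is the authors' count divided by a TMM-scaled library size. Values are whole multiples of 1 step per library (100% within 0.01 read), so reads were recovered. A second, identical entry was dropped, leaving 13222 genes. The 10 members were chosen by name, and the 45 other pathway genes and marker lists by role, with earlier results of these data known; other pathway genes are named where they passed the test in any comparison.

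limma 3.58.1 with trend tested log2(value + 1), so fold changes of low genes are understated, for 12319 genes kept by filterByExpr (edgeR 4.0.16), on condition alone, the 13 libraries sharing 1 estimate of spread (9 residual degrees of freedom). P-values were adjusted by Benjamini-Hochberg over all genes tested, and a gene passed at an adjusted p under 0.05. The methods speak of biological replicates in general but do not say how these wells relate, so p-values measure only the spread between these samples, which may be technical. Replicate numbers are shared between conditions by label alone. Exact permutation tests were 2-sided. R 4.3.3, DESeq2 1.42.0 and python 3.11.15 were used. The methods were tested on simulated data. Gene positions and overlaps came from GENCODE annotation of GRCm38 and promoter windows from RefSeq. Reads carry no molecular identifiers, so they do not count molecules. Alternatives were voom, edgeR's quasi-likelihood test and DESeq2 on recovered reads, library size scaling, no filter, only genes averaging 10 reads or more, the pseudocount 0.1, only the groups compared, a replicate block, a fold change above 2 as well, each library left out, and, added after seeing the data, control replicate 1 and DOX replicate 1 left out together.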

Additional observations from a re-analysis of the deposited data

How the results depend on the processing

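The count of the 10 genes past the test was 0 for IL-17A alone, for both comparisons of DOX+IL-17A with single agents and for the difference between the effects, under every alternative that could be run. For DOX it was 1 with scaling by library size only (Elavl1, 0.95, limma adjusted p = 0.0489), and 0 to 1 when a library was left out. For DOX+IL-17A against control it was 0 with voom, with a replicate block, with only the groups compared and with control replicate 1 and DOX replicate 1 both left out (chosen after the data were seen), and 0 to 2 when a library was left out (2 without IL-17A replicate 5). The adjusted p of Elavl1 was then 0.0505, 0.0914, 0.112 and 0.0931, and with a library left out it ranged from 0.0170 to 0.132. Over all alternatives, 84 of 1370 fold changes of the 10 genes changed sign and 0 of those passed the test. With 1 library left out, Il17ra with DOX ranged from -0.0047 to 0.409 (below 0 without control replicate 3), and its DOX+IL-17A against DOX value from -0.352 to 0.0022 (above 0 without DOX+IL-17A replicate 3), or 0.0103 with a replicate block. Traf3ip2 spanned -0.421 to 0.0314 for DOX and -0.382 to 0.0702 for DOX+IL-17A (above 0 without control replicate 5), and Map3k7 -0.0394 to 0.680 (below 0 without IL-17A replicate 5) for DOX+IL-17A against IL-17A. The cause was not tested.

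Of the 39 other pathway genes, DOX called 4 to 9, DOX+IL-17A 4 to 8, DOX+IL-17A against DOX 0 to 3 and DOX+IL-17A against IL-17A 2 to 6 when a library was left out. DOX+IL-17A called 4 with only the groups compared, and 1 was called against DOX with edgeR or a pseudocount of 0.1 (*Usp18*) or a replicate block (*Cebpd*). IL-17A alone called 2 with DESeq2.

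Nothing in the labels says what the replicate numbers mark, so the main fit did not take them as pairing the samples. A replicate block was run as an alternative. Same-numbered libraries did deviate together more than others on average, though not in every pair. The correlation of deviations averaged 0.15 over 13 same-numbered pairs (-0.18 to 0.49, 8 over 0.1), against -0.04 over 50 other pairs (13 over 0.1). The replicate block gave 1501 calls over all genes for DOX+IL-17A against control, compared with 2182 without it, and 14 against DOX, compared with 56. With only the groups compared, DOX+IL-17A against control called 659 genes. Scaling by library size moved the median of all genes for DOX from 0.09 to 0.24, and for DOX+IL-17A from 0.04 to 0.20, and the share of calls that were up from 56.1% to 71.7% and from 52.9% to 69.1%. For DOX+IL-17A against IL-17A that median moved from 0.02 to 0.22 and the share from 49.1% to 72.5%. Depth limits Traf5 most, at 11 to 36 reads per library.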
